A study of Mus musculus with 8 samples.

Results

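Transcripts of genes that build and move the mitotic spindle, duplicate and mature the centrosome, and carry out cytokinesis were examined in cultured vascular smooth muscle cells given an actin-stabilising compound. The genes were 36 chosen by symbol for these roles, with earlier results of these data known. Of them, 35 had a value among the 19938 genes compared. Kifc1, a minus-end motor that focuses spindle poles, was not analysed here because its probe set carries several gene symbols. The cells came from the aortas of C57Bl6 mice, were used at passage 3 to 4, and their RNA was hybridised to 8 Affymetrix arrays. Culture lasted 24 h in DMEM with 10% FCS (fetal calf serum), for 4 samples without jasplakinolide (control) and for the other 4 with 100 nM of it. Jasplakinolide enters cells and stabilises actin filaments; whether the controls received its solvent is not stated in the labels. The labels do not say whether the 4 samples of a group came from separate cultures or animals, so the p-values reflect how these arrays vary within a group, and that variation may be technical.

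During mitosis, microtubules are arranged into a bipolar spindle by plus-end and minus-end motors of the kinesin family, by microtubule depolymerases and by proteins that nucleate and bundle microtubules around the centrosomes. After the chromosomes separate, antiparallel microtubules form the central spindle, which positions an actin and myosin ring that divides the cell. Most of these genes are transcribed mainly in late cell cycle stages, and their transcripts are therefore abundant in dividing cultures and scarce in resting vessel walls. In a bulk sample, fewer cells in mitosis and less RNA of these genes per cell cannot be told apart.

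Values are log2 expression levels, and a difference is the jasplakinolide mean minus the control mean on that scale. The median probe set of an array had a level of 7.30 to 7.39. Scores on the first principal component, which held 43.3% of the variance, were 12.1 for control 2 and 19.4 for jasplakinolide 4 at one end, -13.4 for control 1 and -14.3 for control 3 at the other, and -4.64 to 4.71 for the 4 arrays between. Smooth muscle markers were present on all arrays, with Acta2 (smooth muscle alpha-actin) at 13.41 ± 0.01 in control and Myh11 (smooth muscle myosin heavy chain) at 8.89 ± 0.12 log2 (SD, n = 4). Some of the 8 endothelial markers were also bright in these cultures, among them Cdh5 (VE-cadherin, 13.17 ± 0.03) and Pecam1 (12.48 ± 0.03 log2, SD, n = 4 control arrays). Emcn (13.41) and Esam (12.49) were bright too, while Robo4 (9.51), Tek (9.44), Kdr (9.07) and Vwf (8.08, control means) were dimmer.

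Spindle and cytokinesis genes were lower with jasplakinolide almost throughout, by small amounts. The mean lay lower in 34 of the 35 genes, against 43.6% of all genes tested, and the median difference was -0.30 on the log2 scale against 0.01 over all genes. In 28 of the 35, all 4 jasplakinolide arrays lay below all 4 control arrays, against 3.29% of all genes. With limma and Benjamini-Hochberg adjustment over all genes, 10 of the 35 fell at an adjusted p under 0.05 and none rose, against 0.336% of all genes lower by the same rule. The 10 were Hmmr, Ckap2, Kif2c, Nusap1, Cep55, Kif23, Kif11, Knstrn, Ect2 and Tacc3. A further 6 had adjusted p values between 0.05 and 0.06, so the count turns on small shifts of the threshold.

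The labels state no pairing, and the fit above used none. After group means were subtracted, same-numbered arrays had correlations of 0.24 to 0.56, and the numbers were taken as pairs in a second fit. Some other pairs were as close, such as control 2 with jasplakinolide 4 (0.52, against 0.24 with jasplakinolide 2). With the replicate number as a block, 24 of the 35 fell (limma), the same 10 and 14 more, against 1.08% of all genes. Every one of the 4 same-numbered pairs was lower with jasplakinolide in 31 of the 35 genes, against 11.5% of all genes. With 1 array left out, the count was 14 without control 2, against 0.416% of all genes, 2 without jasplakinolide 3 (0.0903%), and 1 without control 1 (0.1%) or jasplakinolide 1 (0.0502%). It was 0 without control 3 (0.0451%), control 4 (0.0401%), jasplakinolide 2 (0.0451%) or jasplakinolide 4 (0.0903%). In those 8 fits the median difference stayed between -0.32 and -0.27, and 28 to 31 genes were lower at an unadjusted p under 0.05 (limma; 28 and 4.71% of all genes with every array). Without control 2 and jasplakinolide 4 together, 10 fell, against 0.286% of all genes, and the median was -0.325.

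**Figure D1:**
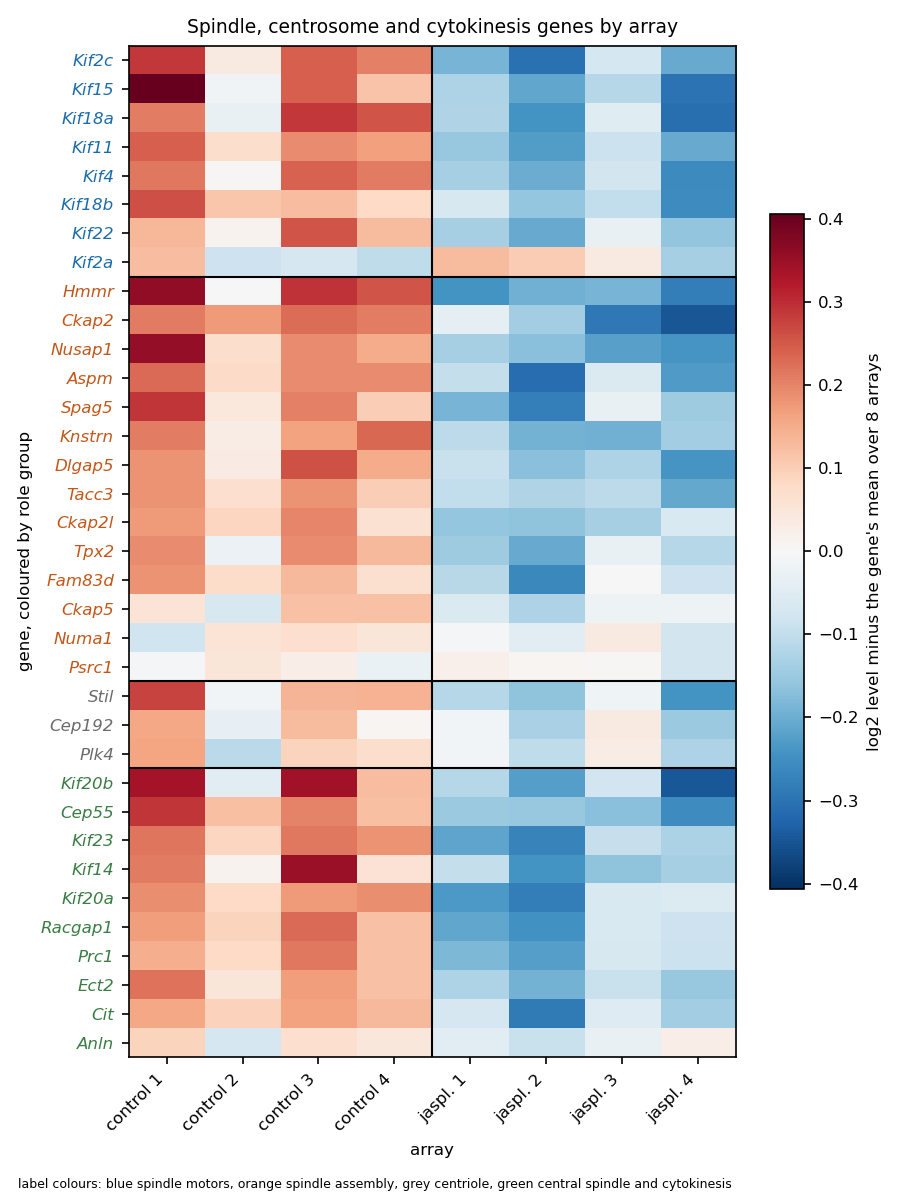
Log2 level of each of the 35 measured genes (rows, grouped by role) on each of the 8 arrays (columns), as the difference from the gene's own mean over all arrays; red is higher and blue lower. The control arrays are mostly red and the jasplakinolide arrays mostly blue; control 2 is the palest control array, and Kif2a, Numa1 and Psrc1 are among the rows without this split.

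The mean log2 level over the 35 genes was 10.14, 9.97, 10.12 and 10.06 on control arrays 1 to 4 and 9.83, 9.75, 9.86 and 9.76 on jasplakinolide arrays 1 to 4. The groups did not overlap, and control 2 lay closest to the treated arrays. Control 2 was the lowest control array for 28 of the 35 genes, and control 1 or control 3 the highest for 18 and 14. Among treated arrays, jasplakinolide 2 and jasplakinolide 4 were each the lowest for 17 genes and jasplakinolide 3 the highest for 21. The same few arrays were thus the lowest or highest of their group for most of the genes.

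Most endothelial markers also had a lower mean with jasplakinolide. Robo4, an endothelial guidance receptor, fell by 0.41 ± 0.06 (SE, limma adjusted p = 0.0170), and the other 7 endothelial markers did not pass. The mean was lower in 6 of the 8. Of all genes, 0.336% fell and 43.6% had a lower mean. With the replicate block, Tek (-0.31 ± 0.08, SE; adjusted p = 0.0354) and Kdr (-0.45 ± 0.15; 0.0425), the receptors of angiopoietins and of VEGF, passed as well. The mean log2 level of the 8 endothelial markers per array was 10.93 to 10.98 in control and 10.68 to 10.83 with jasplakinolide. The 6 macrophage markers, none past the test, lay at 8.10 to 8.24 in control and 8.10 to 8.20 with jasplakinolide, and the 6 fibroblast markers, none past it, at 8.21 to 8.41 and 8.09 to 8.21. Of these 2 lists, 2 macrophage and 2 fibroblast markers had an unadjusted p under 0.05 (limma, 8.87% of all genes). Of the 2 macrophage markers, Cd68 was lower and Lyz2 higher (0.17 ± 0.05, SE; limma adjusted p = 0.211), Lyz2 without overlap. Both fibroblast markers, Dcn and Dpt, were lower. In each list 4 of 6 had a lower mean. The mean of the fibroblast markers went from 8.33 to 8.17 log2, and that of the endothelial markers from 10.95 to 10.78. With the block, the macrophage marker Cd68 (-0.24 ± 0.07, SE; adjusted p = 0.0425) and the fibroblast marker Dcn (-0.54 ± 0.12; 0.0134) passed. Smooth muscle markers went the other way: 5 of 8 rose, against 0.436% of all genes, with mean log2 levels of 10.17 to 10.31 against 10.60 to 10.79. The part of these cell types in the lower spindle gene levels was not tested.

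**Figure D2:**
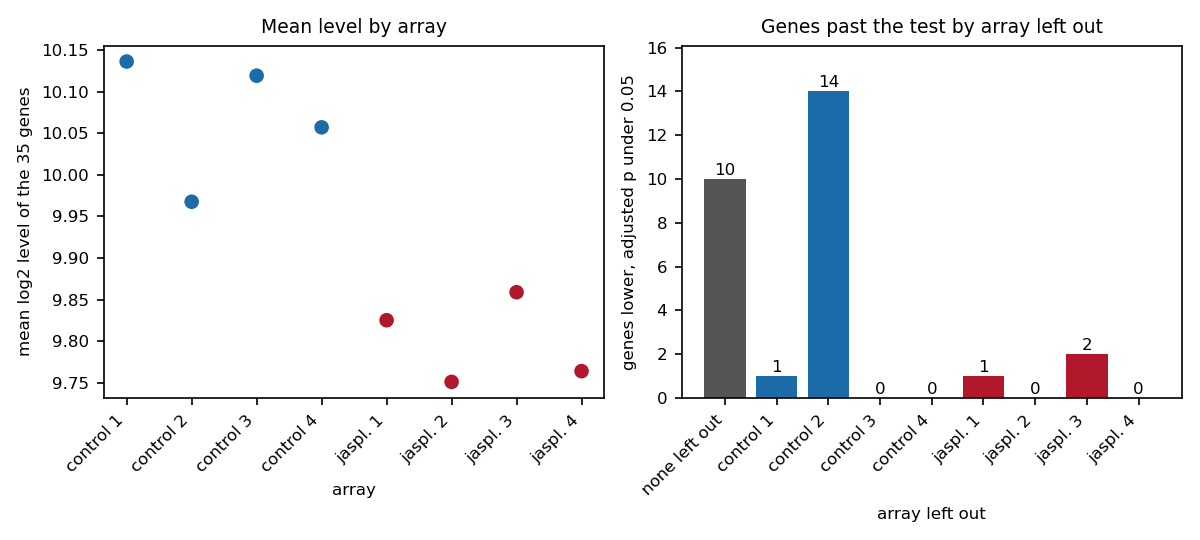
Left, mean log2 level of the 35 genes on each array (the axis does not start at 0; blue control, red jasplakinolide). Right, number of the 35 genes lower with jasplakinolide at an adjusted p under 0.05 with all arrays (10) and with each array left out (0 to 14).

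Promoters were compared because many late cell cycle genes are known to carry a cell cycle genes homology region, or CHR. It is bound by the DREAM and MuvB complexes, often near CCAAT boxes bound by NF-Y. The 35 genes were chosen for such roles, so their share of matches does not by itself bear on the response to jasplakinolide. RefSeq windows of 300 bases (GRCm38.p6), from 250 before to 50 after a start site, were given for 31 of the 35 genes. The CHR was searched as TTTGAA or TTCGAA on both strands (reversed, TTTGAA reads TTCAAA, and TTCGAA is its own reverse) and the CCAAT box as CCAAT on both strands, each independently of the other. A CHR match stood in the windows of 22 of the 31 genes (71%), against 19% of 15614 genes on the array with a window and 19.2% of all 32851 windows. A CCAAT match stood in 18 of the 31 (58.1%), against 41.7% of array genes and 37.4% of all windows. Both were present in 17 (54.8%), against 7.69% of array genes and 7.52% of all windows. Within 50 bases of the start site, 19 of the 31 (61.3%) had the first base of a CHR match, against 5% of array genes.

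The 150 bases before the start site are shown for the 4 genes whose start is the first base of the RefSeq gene and which have a CHR match wholly within these bases, and for Kif2a, the 1 gene with a higher mean, as a contrast. Capitals mark CHR matches (TTTGAA or TTCAAA) and CCAAT matches (CCAAT or ATTGG), and each sequence reads 5′ to 3′ on the gene's strand.
Kif11, chr19:37376232-37376381, plus strand: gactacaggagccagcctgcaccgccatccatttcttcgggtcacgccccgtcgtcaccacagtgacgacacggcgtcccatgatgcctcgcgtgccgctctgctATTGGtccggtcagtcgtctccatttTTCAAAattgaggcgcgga
Kif15, chr9:122950931-122951080, plus strand: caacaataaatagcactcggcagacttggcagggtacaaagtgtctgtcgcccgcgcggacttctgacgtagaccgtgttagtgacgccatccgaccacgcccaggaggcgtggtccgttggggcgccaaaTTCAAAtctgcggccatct
Fam83d, chr2:158767949-158768098, plus strand: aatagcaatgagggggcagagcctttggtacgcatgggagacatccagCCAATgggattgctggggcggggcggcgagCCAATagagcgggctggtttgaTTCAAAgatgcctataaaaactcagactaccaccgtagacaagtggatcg
Ckap2, chr8:22185820-22185969, minus strand: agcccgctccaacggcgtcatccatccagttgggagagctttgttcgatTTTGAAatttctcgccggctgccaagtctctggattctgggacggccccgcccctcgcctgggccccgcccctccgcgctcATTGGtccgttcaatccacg
Kif2a, chr13:107022356-107022505, minus strand: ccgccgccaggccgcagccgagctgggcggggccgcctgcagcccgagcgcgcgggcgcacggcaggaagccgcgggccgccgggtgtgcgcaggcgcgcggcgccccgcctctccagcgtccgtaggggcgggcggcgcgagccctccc

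In Kif11 and Kif15 the match began 19 bases before the start site, in Fam83d 50 and in Ckap2 101. The 22 genes with a CHR match had a median difference of -0.32, ranging from -0.45 for Hmmr to -0.02 for Psrc1, and 7 of them fell (limma, adjusted p under 0.05). The 9 without one (Cit, Stil, Plk4, Nusap1, Knstrn, Tacc3, Numa1, Kif18a and Kif2a) had a median of -0.27, ranging from -0.38 for Nusap1 to 0.07 for Kif2a, and 3 fell. Among all array genes with a window, medians were 0.01 both for the 2974 with and for the 12640 without a match. A match is a description of these letters and not of binding.

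The motors of the spindle were lower with the exception of Kif2a. Of the 8 measured, Kif2c and Kif11 fell, none rose and 6 did not pass, where 0.336% of all genes fell. Lower without overlap were 7, against 3.29% of all genes, and the median difference was -0.34. Kif2c encodes a depolymerase that removes faulty microtubule attachments at centromeres. Its log2 levels were 10.04, 9.79, 10.00 and 9.96 in control and 9.57, 9.45, 9.69 and 9.55 with jasplakinolide. Every treated array lay below every control array, by a gap of 0.11. Kif2c fell by 0.39 ± 0.07 (SE), 1.31-fold, with a limma adjusted p of 0.0427 (0.0202 with the block), and kept its call when control 2 was left out but not when any other array was.

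Kif11 encodes the tetrameric motor Eg5, which pushes the spindle poles apart. Its log2 levels were 10.87, 10.70, 10.82 and 10.79 in control and 10.47, 10.40, 10.54 and 10.42 with jasplakinolide, all treated arrays below all controls. The mean went from 10.79 ± 0.07 to 10.46 ± 0.06 log2 (SD, n = 4 each), a fall of 0.34 ± 0.05 (SE; limma adjusted p = 0.0280). It kept its call without control 2 or jasplakinolide 3 and lost it without any of the other 6 arrays. Kif15, a motor that helps Eg5 keep the spindle bipolar, lay at 9.26, 8.84, 9.09 and 8.96 in control and at 8.72, 8.64, 8.73 and 8.55 with jasplakinolide. The groups did not overlap, but the control arrays were widely spread (SD 0.18), and the difference of -0.38 ± 0.09 (SE) missed the threshold (limma adjusted p = 0.112; 0.0417 with the block).

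Kif18a, a plus-end motor that limits the swing of chromosomes at the spindle equator, lay at 9.06, 8.83, 9.14 and 9.11 in control and at 8.73, 8.61, 8.81 and 8.55 with jasplakinolide. Only a gap of 0.02 separated the lowest control array, control 2, from the highest treated one. Its difference was -0.36 ± 0.08 (SE; limma adjusted p = 0.104; 0.0485 with the block). Its relative Kif18b, which acts at the ends of astral microtubules, differed by -0.29 ± 0.06, and the chromosome-bound motors Kif4 and Kif22 by -0.33 ± 0.07 and -0.26 ± 0.06 (SE). These 3 missed the threshold (limma adjusted p 0.0579 to 0.109) and passed with the block (0.0302 to 0.0380). Without control 2 alone, Kif15 (0.0481), Kif18a (0.0338) and Kif4 (0.0209) passed.

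Kif2a stood apart from the other motors. It is a depolymerase of the same subfamily as Kif2c that also works in non-dividing cells such as neurons. Its levels were 10.88, 10.67, 10.69 and 10.65 in control and 10.89, 10.86, 10.79 and 10.62 with jasplakinolide, overlapping throughout. The difference was 0.07 ± 0.07 (SE), with a 95% interval from -0.10 to 0.23 (limma adjusted p = 0.908), so that the value of Kif2c, -0.39, lay outside it. The difference between the paralogs was not tested as such.

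The proteins that assemble the spindle and its poles included the largest falls. Of 14 measured, 5 fell (0.336% of all genes), none rose and 9 did not pass. All 14 had a lower mean (43.6% of all genes), 11 were lower without overlap (3.29%), and the median difference was -0.29. Hmmr, a hyaluronan-binding protein that also acts at spindle poles, had log2 levels of 9.67, 9.31, 9.60 and 9.56 in control and 9.06, 9.11, 9.12 and 9.03 with jasplakinolide. The treated arrays lay close together (SD 0.04), while control 2 lay below the other controls. Hmmr fell by 0.45 ± 0.08 (SE), 1.37-fold, the largest difference of the 35 (limma adjusted p = 0.0330), and kept its call without control 2 (0.00417) and lost it without any other single array.

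Ckap2, a microtubule-stabilising protein, had log2 levels of 10.81, 10.77, 10.82 and 10.80 in control and 10.56, 10.45, 10.31 and 10.25 with jasplakinolide. Here the controls were tight (SD 0.02) and the treated arrays spread (SD 0.14), the reverse of Hmmr. Ckap2 fell by 0.41 ± 0.07 (SE), 1.33-fold (limma adjusted p = 0.0332), and kept its call only without jasplakinolide 1 (0.0245) among the 8 fits with an array left out. It also missed the threshold without control 2 and jasplakinolide 4 together (0.0737).

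Nusap1, which bundles microtubules near chromosomes, lay at 10.98, 10.70, 10.82 and 10.78 log2 in control and at 10.49, 10.46, 10.40 and 10.38 with jasplakinolide. It fell by 0.38 ± 0.06 (SE; limma adjusted p = 0.0331). Control 1 was the highest array and the groups lay 0.21 apart.

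Knstrn is a partner of astrin at kinetochores and spindle poles. Its log2 levels were 10.16, 9.99, 10.12 and 10.19 in control and 9.85, 9.76, 9.76 and 9.81 with jasplakinolide, and it fell by 0.32 ± 0.05 (SE; limma adjusted p = 0.0359). Tacc3 crosslinks kinetochore microtubules together with Ckap5 and clathrin. It lay at 9.25, 9.13, 9.25 and 9.17 in control and at 8.97, 8.95, 8.96 and 8.86 with jasplakinolide, and fell by 0.27 ± 0.05 (SE; adjusted p = 0.0455). The groups overlapped for neither gene. Nusap1, Knstrn and Tacc3 kept their calls without control 2 and lost them without any other single array, and Tacc3 also missed the threshold after median centring (0.0519) and without control 2 and jasplakinolide 4 together (0.0720).

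Among the other assembly factors, Aspm (-0.35 ± 0.07), a pole protein of dividing neural progenitors, Spag5 or astrin (-0.32 ± 0.07), Dlgap5 (-0.31 ± 0.06), which stabilises kinetochore fibres, and Tpx2 (-0.25 ± 0.06, SE), an activator of Aurora A, passed with the block (adjusted p 0.0257 to 0.0474) and not without it (0.0504 to 0.150). Aspm (0.0497) and Dlgap5 (0.0307) also passed without control 2. Ckap2l (-0.26 ± 0.05) and Fam83d (-0.23 ± 0.06, SE), which brings a casein kinase to the spindle, passed neither fit, although their groups did not overlap. In contrast, Ckap5, a microtubule polymerase, differed by -0.11 ± 0.05, Numa1, which gathers microtubule ends at the poles, by -0.04 ± 0.05, and Psrc1, a plus-end protein, by -0.02 ± 0.04 (SE). The groups of these 3 overlapped, and their 95% intervals reached from -0.24 to 0.01, from -0.16 to 0.07 and from -0.12 to 0.07.

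The 3 regulators of centriole duplication and centrosome maturation had lower means, with a median difference of -0.13; their difference from the other roles was not tested. None of the 3 passed (limma, with 1 at an unadjusted p under 0.05, against 8.87% of all genes), with or without the block. Stil, a scaffold of new centrioles, lay at 9.71, 9.42, 9.57 and 9.57 log2 in control and at 9.32, 9.27, 9.42 and 9.19 with jasplakinolide, a difference of -0.27 ± 0.07 (SE; adjusted p = 0.163). Its lowest control and highest treated arrays lay 0.0060 apart. Plk4, the kinase that starts centriole duplication, lay at 9.96, 9.69, 9.89 and 9.87 in control and at 9.79, 9.69, 9.83 and 9.67 with jasplakinolide, with overlapping groups and a difference of -0.11 ± 0.07 (SE).

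Cep192, a scaffold that recruits Aurora A and Plk4 to centrosomes, lay at 9.84, 9.64, 9.81 and 9.69 log2 in control and at 9.67, 9.54, 9.71 and 9.53 with jasplakinolide. The groups overlapped, and the difference was -0.13 ± 0.06 (SE; limma adjusted p = 0.622). Its 2 other probe sets gave -0.21 ± 0.11 and -0.38 ± 0.13 (SE) and did not pass either. All 3 probe sets of Cep192 thus had a lower mean with jasplakinolide.

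Genes of the central spindle and cytokinesis were lower in all 10 cases. Of the 10, 3 fell (0.336% of all genes), none rose and 7 did not pass. Lower without overlap were 9 (3.29% of all genes), and the median difference was -0.31. Cep55, which brings the abscission machinery to the bridge between daughter cells, had log2 levels of 10.28, 10.11, 10.19 and 10.11 in control and 9.84, 9.84, 9.82 and 9.74 with jasplakinolide. The gap between the groups, 0.27, was the widest of the 35 genes. Cep55 fell by 0.37 ± 0.05 (SE), 1.29-fold, with the lowest adjusted p of the 35 (limma, 0.0188). It kept its call without control 1 or control 2 and lost it without any of the other 6 arrays.

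Kif23 is the motor of centralspindlin, the complex that bundles the central spindle. Its log2 levels were 11.04, 10.91, 11.03 and 11.00 in control and 10.60, 10.55, 10.72 and 10.69 with jasplakinolide, with no overlap. Kif23 fell by 0.35 ± 0.05 (SE; limma adjusted p = 0.0250) and kept its call without control 2 or jasplakinolide 3, but not without any other array. Its partner Racgap1, a GTPase-activating protein, differed by -0.30 ± 0.06 (adjusted p = 0.0513; 0.0338 with the block). Ect2, the exchange factor that centralspindlin recruits to activate RhoA, lay at 11.17, 10.99, 11.11 and 11.06 in control and at 10.82, 10.75, 10.85 and 10.79 with jasplakinolide. The groups did not overlap, and Ect2 fell by 0.28 ± 0.05 (SE; limma adjusted p = 0.0427). Ect2 kept its call only without control 2 among the 8 fits, and missed it after median centring (0.05002) and without control 2 and jasplakinolide 4 together (0.0621). All 3 genes of this module therefore had differences between -0.35 and -0.28.

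Kif20b, a motor of the midzone and midbody, lay at 9.11, 8.72, 9.11 and 8.89 log2 in control and at 8.65, 8.54, 8.69 and 8.42 with jasplakinolide. Control 2 was only 0.03 above the highest treated array, and with that spread the difference of -0.38 ± 0.10 (SE) did not pass (limma adjusted p = 0.151; 0.0389 with the block). Prc1, which crosslinks antiparallel microtubules (-0.28 ± 0.05), Kif20a, a motor that carries Plk1 to the midzone (-0.32 ± 0.06), and the citron kinase Cit (-0.27 ± 0.06, SE) missed the threshold without the block (0.0512 to 0.0802) and passed with it (0.0321 to 0.0410). Kif14, which recruits citron kinase, differed by -0.32 ± 0.08 (SE) and passed neither fit; its second, dim probe set (mean level 5.33) gave 0.01 ± 0.08. Anln, the anillin scaffold that ties the contractile ring to the membrane, differed by -0.07 ± 0.05 (SE), with overlapping groups and a 95% interval from -0.18 to 0.04.

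**Figure D3:**
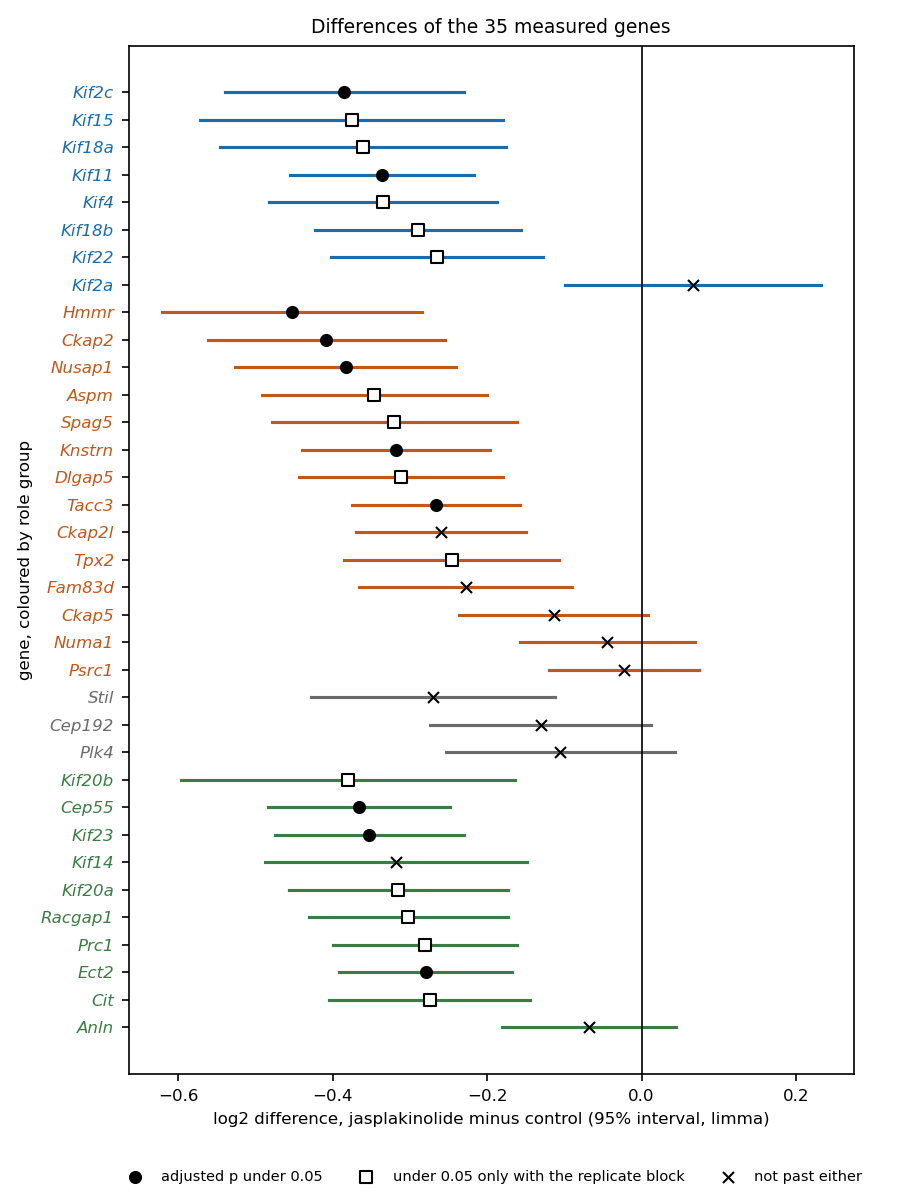
Log2 difference (jasplakinolide minus control) of each of the 35 genes with limma's 95% interval, grouped by role in 4 colours. Filled circles mark the 10 genes past an adjusted p of 0.05, open squares the 14 that pass only with the replicate block, and crosses the rest; Kif2a is the 1 gene to the right of 0.

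Kinesins that act in mitosis were set beside kinesins that carry cargo or serve cilia in non-dividing cells. The 12 measured mitotic kinesins (the 8 spindle motors with Kif20a, Kif20b, Kif23 and Kif14) had a median difference of -0.34. Of the 12, 3 fell, against 0.336% of all genes, and 11 were lower without overlap, against 3.29%. Of 26 transport and interphase kinesins, none passed (limma; 1 at an unadjusted p under 0.05), where 0.772% of all genes passed and 8.87% had such an unadjusted p. None of the 26 had all treated arrays below all controls. Only 3.29% of all genes did, so that count does not set this list apart. The median was 0.04 with a range of -0.17 to 0.17. The largest differences among the 26 were those of Kif24 (-0.17 ± 0.09), a kinesin of centrioles and cilia, and Kif27 (0.17 ± 0.07, SE). The difference between the lists was not tested as such.

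Kinases that act on the spindle were lower as well. Of 10 measured genes of spindle kinases and the chromosomal passenger complex, 4 fell, none rose and 6 did not pass, with a median of -0.26, where 0.336% of all genes fell. With the replicate block Aurka, the Aurora A kinase, passed too (-0.26 ± 0.06, SE; adjusted p = 0.0425), where 1.08% of all genes fell. Nek2, a kinase that splits the centrosomes, fell by 0.33 ± 0.06, and Ccnb2 (cyclin B2) by 0.31 ± 0.05 (SE); the other two were Aurkb and Plk1 (limma adjusted p 0.0224 to 0.0399 for the 4). The count of 4 stayed at 4 without control 2 (0.416% of all genes lower) and was 1 without jasplakinolide 4 (0.0903%). It was 0 without control 1, control 3, control 4 or any of jasplakinolide 1 to 3 (0.0401% to 0.1%), and 2 without control 2 and jasplakinolide 4 together (0.286%).

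Structural parts of the centrosome and the microtubule nucleation machinery were also examined; whether they differed from the spindle genes was not tested. None of 18 gamma-tubulin ring and augmin genes and none of 18 centriole and centrosome genes passed (limma, with 1 and 4 at an unadjusted p under 0.05). Their medians were -0.08 and -0.05, and 15 of 18 means were lower in each. Of all genes, 0.772% passed, 8.87% had such an unadjusted p and 43.6% had a lower mean. The largest differences were those of Haus5 (-0.30 ± 0.08) and Haus6 (-0.21 ± 0.10) of augmin and of Ccp110 (-0.29 ± 0.08), which caps centrioles, and Sass6 (-0.26 ± 0.08, SE), which builds their cartwheel. Of 26 contractile ring and abscission genes none passed (3 at an unadjusted p under 0.05), and the median was 0.01. The formin Diaph3 (-0.30 ± 0.08; adjusted p = 0.145) and the RhoA regulator Arhgap11a (-0.27 ± 0.06, SE; 0.105) differed most, and both passed with the block (0.0358 and 0.0431).

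Among 21 dynein, cortical and plus-end factors 1 fell, against 0.336% of all genes. It was Stmn1, the tubulin-binding protein stathmin (-0.25 ± 0.04, SE, limma adjusted p = 0.0346), which lost its call whichever array was left out. The other 20 did not pass, and the median was -0.015. Without overlap, 2 genes were lower and 3 higher, against 3.29% and 3.62% of all genes. The G protein subunit Gnai1 had the largest difference of this list, 0.30 ± 0.07 (SE; adjusted p = 0.130), and was one of the 3. None of 8 tubulins passed (limma, with 1 at an unadjusted p under 0.05, against 8.87% of all genes). Tubb6 differed by 0.20 ± 0.04 and Tubb3 by -0.16 ± 0.13 (SE). Tubulin genes are near copies, and probe sets may read more than 1 of them.

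Of 18 transcription regulators of the cell cycle none passed (limma, with 4 at an unadjusted p under 0.05, against 8.87% of all genes). The median was -0.08, and 13 means were lower, against 43.6% of all genes. E2f8, a repressor of the E2F family, differed by -0.25 ± 0.09, and Foxm1, an activator of late cell cycle genes, by -0.21 ± 0.05 (SE; adjusted p = 0.0969), with groups that did not overlap. The mean was lower in all 13 DNA replication genes (median difference -0.16), against 43.6% of all genes, 11 had an unadjusted p under 0.05, against 4.71% of all genes lower by that rule, and 9 were lower without overlap, against 3.29%. By the adjusted p, 1 fell, against 0.336% of all genes. It was the ribonucleotide reductase subunit Rrm2 (-0.27 ± 0.05, SE, limma adjusted p = 0.0467). Rrm2 lost its call whichever array was left out.

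**Figure D4:**
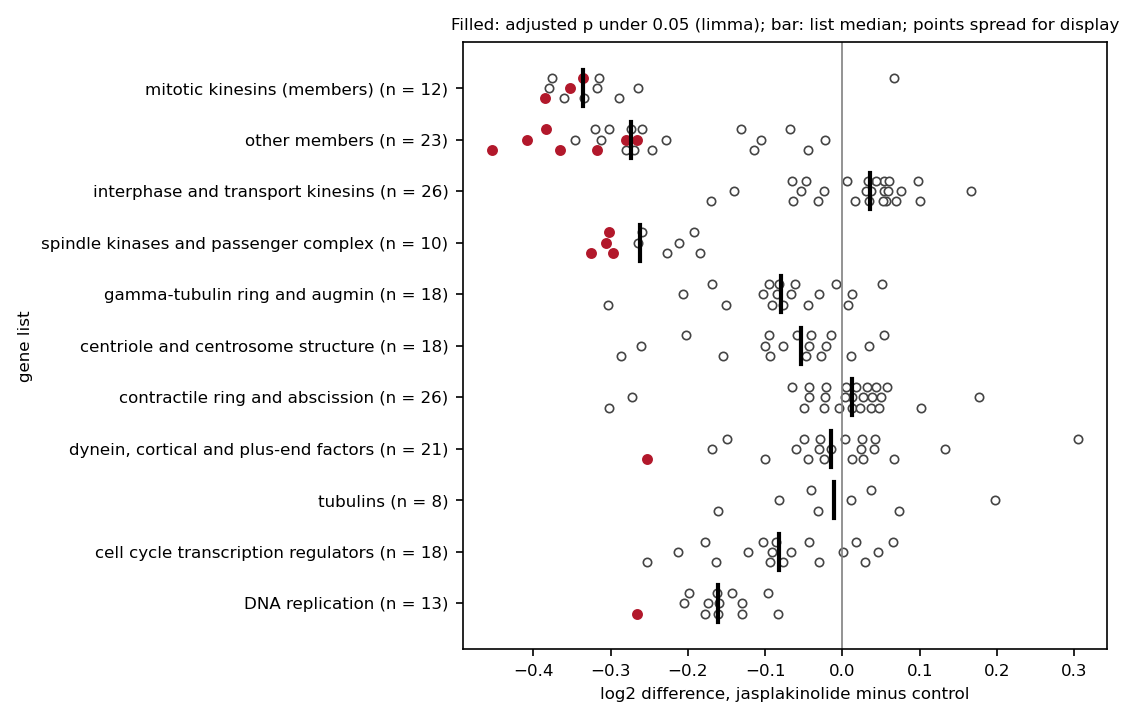
Log2 difference (jasplakinolide minus control) of every measured gene, by list (rows); filled points passed limma at an adjusted p under 0.05, open points did not, and bars are list medians. The mitotic kinesins and the other members have medians of -0.34 and -0.27, the transport kinesins one of 0.04.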

How the data were processed

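Per the submitters' processing notes, the authors ran RMA in Affymetrix Expression Console and deposited log2 levels, here of 35556 probe sets on 8 arrays; the software version is not stated there. RMA fits the probes of each probe set jointly across arrays and compresses differences of dim probe sets. Of the probe sets, 21789 had 1 gene symbol in the platform annotation, 1621 several and 12146 none. Probe sets with 1 symbol were kept, and where a gene had several the brightest on average was taken, which left 19938 genes. The difference between groups was fitted in limma 3.58.1 (R 4.3.3; lmFit, then eBayes; two-sided, Benjamini-Hochberg over all genes, 6 residual and 3.43 prior degrees of freedom). Errors are SDs for means and limma's standard errors for differences. The fit was tested on simulated data.

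The members, lists and tests were chosen with earlier results of these data known. All 35 measured members are named, with values on every array for the 3 largest differences of each role group, and up to 2 genes of each further list (others, where a count is 5 or fewer, were named after their values were seen). After group means were subtracted, the 4 same-numbered pairs of arrays had correlations across genes of 0.24 to 0.56 and other pairs -0.62 to 0.52. All 4 were above 0.1, so the numbers were used as pairs, although some other pairs were above 0.1 too. The labels do not state a pairing. Alternatives were the replicate block, filters on dim genes, other normalizations, variance models and treatments of probe sets, and leaving arrays out. Promoter windows are RefSeq's (GRCm38.p6). Plots used matplotlib 3.10.9 (Python 3.11.15).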

Additional observations from a re-analysis of the deposited data

Results flagged for a closer look

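In 5 of 70 groups of 4 arrays (35 genes, 2 groups each), 1 array lay far from the other three by Dixon's test; chance flags about 1 in 20 groups. Kif4 (9.34 against 9.55 to 9.58 log2) and Kif20a (11.07 against 11.16 to 11.18) were low in control 2, the array closest to the treated ones. Numa1 was low in control 1 (10.41 against 10.54 to 10.56), where Kif2a was high (10.88 against 10.65 to 10.69). Psrc1 was low in jasplakinolide 4 (10.92 against 11.00 to 11.02).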

How the results depend on the processing

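The number of arrays limits the precision. The count of genes of the 35 that fell was 24 with the replicate block, 18 and 22 among the brighter 75% and 50% of genes (0.736% and 1.41% of the genes tested there were lower), 26 after a further quantile normalization (0.838%), 25 after cyclic loess (0.843%), 21 with an intensity trend and robust prior (0.828%), 26 with array weights (1.17%), 0 at an adjusted p under 0.01 (28 at an unadjusted p under 0.05, limma) and 0 to 14 with 1 array left out. It was within 1.5 times the main count of 10 after median centring, with either treatment of probe sets and without control 2 and jasplakinolide 4 together. In the 11 fits with all arrays, 8 genes were called every time and 8 never. The shares of all genes given in parentheses are above the 0.336% with the main settings, so more genes passed overall as well. The median difference (-0.32 to -0.27 with 1 array left out) moved little under the alternatives that could change it. The count without overlap was 28 after median centring, 29 after further quantile normalization or cyclic loess and 27 with probe sets averaged. Leaving arrays out can only keep or raise that count, so its range there (28 to 31) is no check on it. The count of all genes changed, 154, was 377 with the replicate block, 296 among the brighter 50%, 296 after a further quantile normalization, 297 after cyclic loess, 358 with the trend and robust prior, 457 with array weights, 45 at an adjusted p under 0.01 and 43 to 150 with 1 array left out. Its split of 87 higher and 67 lower became 129 and 167 after a further quantile normalization, 129 and 168 after cyclic loess, 162 and 215 with the replicate block, 223 and 234 with array weights and 103 and 54 after median centring. With 1 array left out it was 67 and 83 without control 2, and higher calls were the more numerous in the other 7 fits, from 41 and 18 without jasplakinolide 3 to 46 and 9 without control 3. The difference of Psrc1 turned to 0.0092 with array weights and 0.0123 without control 2 and jasplakinolide 4 together, and was called in neither.

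Of the further lists, the spindle kinases had 7 called genes with array weights, after cyclic loess or after a further quantile normalization, 2 without control 2 and jasplakinolide 4 together and 0 to 4 with 1 array left out. The contractile ring list had 2 with the replicate block, after cyclic loess or after a further quantile normalization and 1 among the brighter 50% or with the trend. The gamma-tubulin list had 1 after a further quantile normalization. Tubulins had 1 among the brighter 75% or 50%, after a further quantile normalization, with the trend or with array weights. The transcription regulators had 1 among the brighter 50%, after a further quantile normalization, after cyclic loess or with the trend. DNA replication had 3 among the brighter 50% or with the trend, 4 after cyclic loess or a further quantile normalization, 2 with array weights, 0 after median centring, 0 without control 2 and jasplakinolide 4 together and 0 with any 1 array left out. The plus-end list had 0 without those 2 arrays and 0 with any 1 left out. The replicate block changed the call of no gene of the 35 beyond the 14 it added. The cause of these shifts was not tested. Some of the alternatives also used fewer genes or arrays.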
